A study of Mus musculus with 9 samples.

Results

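Reads from 10 genes used as markers of the lung epithelium were followed through a preparation of CD103+ dendritic cells: the surfactant genes Sftpc, Sftpa1, Sftpb and Sftpd, the airway secretory gene Scgb1a1, the junction genes Epcam and Cdh1, the alveolar genes Napsa and Ager, and the cilia regulator Foxj1. The genes were chosen with earlier results of these data known, so counts over them are not blind to the data. They were looked up by symbol, and each matched 1 of the 45535 rows that carry a symbol. They are called epithelial genes below by this use only, and which cells their reads came from was not tested. All 10 had a mean of at least 10 normalized counts over the samples and so were among the 18202 genes tested. C57/BL6j mice received bleomycin, a drug that injures the lung and is used to model fibrosis, and lungs were taken after 7 days, digested with collagenase and passed over magnetic beads for CD103+ cells. RNA was taken at once in 5 samples (before culture) or after 18 h in RPMI medium with fetal serum and antibiotics in 4 samples (after culture). Both groups had bleomycin, and no untreated lung is used here. The cell type label names CD103+ DCs, while the extraction label speaks of total lung RNA, and the labels do not say how many mice went into a sample. The samples are therefore separate by label only, and p-values measure the spread between them, which may be technical.

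The alveolus is lined by flat type 1 cells, which carry gas exchange, and by cuboidal type 2 cells, which make surfactant and renew the lining after injury. The conducting airways are lined by club and goblet cells that secrete, ciliated cells that clear mucus, and basal cells that renew them. Dendritic cells sample the airway across this lining, and CD103, encoded by Itgae, binds E-cadherin, the product of Cdh1, on epithelial cells. Some of the marker names are not exclusive to epithelium: E-cadherin and EpCAM are also carried by Langerhans cells, the dendritic cells of the epidermis. Lamp3 is on the lists used here for both type 2 cells and mature dendritic cells. Whether the other names, Napsa among them, are exclusive to epithelium in this preparation was not tested.

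RefSeq promoter sequences (GRCm38.p6) matched 4 of the 10 genes, Sftpa1, Sftpb, Epcam and Ager. The 250 bases before the start site are shown for 2 surfactant genes that fell together and were highest in the same libraries. They are also shown for Epcam, which fell and was highest in those libraries too, but varied less. Epcam was 1.25 and 1.05 times the median of the other samples there, before and after culture. Capitals mark 4 motifs: the letters CTCAAG, a core of sites bound by the lung regulator NKX2-1; the TATA box, searched as TATAA; the forkhead core, searched as TGTTTGC; and the E-box of the form CACCTG. They were searched on both strands; no 2 matches share a base. All 3 windows lie on the plus strand, Sftpb at chr6:72304360-72304609, Sftpa1 at chr14:41131538-41131787 and Epcam at chr17:87635729-87635978.
Sftpb: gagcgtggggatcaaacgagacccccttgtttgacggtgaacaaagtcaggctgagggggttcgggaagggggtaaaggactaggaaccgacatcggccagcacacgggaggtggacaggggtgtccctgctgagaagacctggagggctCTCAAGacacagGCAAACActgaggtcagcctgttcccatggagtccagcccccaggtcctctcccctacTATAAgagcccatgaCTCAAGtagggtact
Sftpa1: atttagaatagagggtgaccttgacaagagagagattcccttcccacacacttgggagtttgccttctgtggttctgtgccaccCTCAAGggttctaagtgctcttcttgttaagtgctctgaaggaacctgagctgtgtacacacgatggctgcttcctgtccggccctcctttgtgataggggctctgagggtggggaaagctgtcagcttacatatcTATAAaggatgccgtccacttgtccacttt
Epcam: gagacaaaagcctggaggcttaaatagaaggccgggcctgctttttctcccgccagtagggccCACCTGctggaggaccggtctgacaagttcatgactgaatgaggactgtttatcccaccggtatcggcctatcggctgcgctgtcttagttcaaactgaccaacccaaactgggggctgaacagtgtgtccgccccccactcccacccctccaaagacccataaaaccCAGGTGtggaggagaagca
CTCAAG begins 100 and 15 bases before the Sftpb start site and 166 bases before that of Sftpa1, and TATAA begins 30 bases before both. The forkhead core lies 88 bases before the Sftpb start site and reads on the minus strand, so the capitals there are its reverse complement, as they are for the nearer E-box of Epcam. The letters CTCAAG occur in 13.3% of the 32851 promoter windows of this length, TATAA in 22.8%, CACCTG in 17.2% and TGTTTGC in 4.30%. Epcam holds 2 matches to CACCTG, 187 and 19 bases before its start site, and none to the other 3 motifs, while the Ager window holds no match to any of the 4. A match describes letters only.

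The genes lie on 7 chromosomes in GRCm38, the build named in the submitters' processing notes, and all are protein-coding in GENCODE M21. Sftpa1 (chr14:41131782-41136452), Sftpd (chr14:41172214-41185149) and Sftpc (chr14:70520949-70524081) share chromosome 14. Sftpb is at chr6:72304610-72314371, Scgb1a1 at chr19:9083636-9087958, Epcam at chr17:87635979-87651129, Ager at chr17:34597862-34600936, Cdh1 at chr8:106603351-106670246, Napsa at chr7:44572380-44586862 and Foxj1 at chr11:116330704-116335399. Of these genes only the exons of Napsa overlap those of another gene. The overlap with Gm15396, on the opposite strand, covers 18.9% of Napsa exon length, and because the use of strand in counting is not given in the sources used here, reads there cannot be told apart. No more than 1.27% of the 50-base windows of any member's longest transcript occur in another gene.

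Depth was 14.7 M to 35.3 M reads in named genes per sample, and the lowest read count behind any value of the 10 genes was 33. The labelled cell type was checked by its markers. Itgae stood at 18138 ± 1537 normalized counts before and 1727 ± 335 after culture, Xcr1 at 5836 ± 781 and 114 ± 32.5, and Clec9a at 2756 ± 286 and 315 ± 27.8 (SD, n = 5 and n = 4), so these markers of type 1 conventional dendritic cells were read in every sample and were lower after culture. Of the 11 genes on the same marker list 8 were lower and 3 higher: Flt3 (log2 fold change 0.67), Batf3 (0.56) and Zbtb46 (0.26) rose, with limma adjusted p-values of 6.7e-05, 0.00387 and 0.0173. These 3 were named after their values were seen. Some libraries stood apart in a way that touches the results. Before-culture replicate 4 and after-culture replicate 3, both library number 4 by their library names, were high in surfactant transcripts. Pairs of libraries were also compared over named genes, by chi-square per degree of freedom of their reads. Before-culture replicate 4 gave 25.3 to 39.2 with the others of its group, which gave 7.02 to 12.1 among themselves. After-culture replicate 3 gave 22.0 to 66.9, and the others of its group 13.5 to 22.9. The difference is therefore not shown to be one of surfactant transcripts alone.

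All 10 epithelial genes passed the test, at a limma adjusted p under 0.05, as did 68.8% of all genes tested. Of the 10, 9 were lower and 1, Foxj1, was higher after culture, and for none did the groups overlap. Among all genes tested 34.6% were lower and 34.2% higher by that test, and 57.3% did not overlap between groups (28.6% lower and 28.7% higher). The 9 lower genes fell by ratios of group means from 3.58-fold (Epcam) to 9.28-fold (Cdh1). The median log2 fold change of the 10 was −2.39, against 0.0065 over all genes tested. In bulk RNA, fewer cells of a type and less RNA per cell cannot be told apart.

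**Figure D1:**
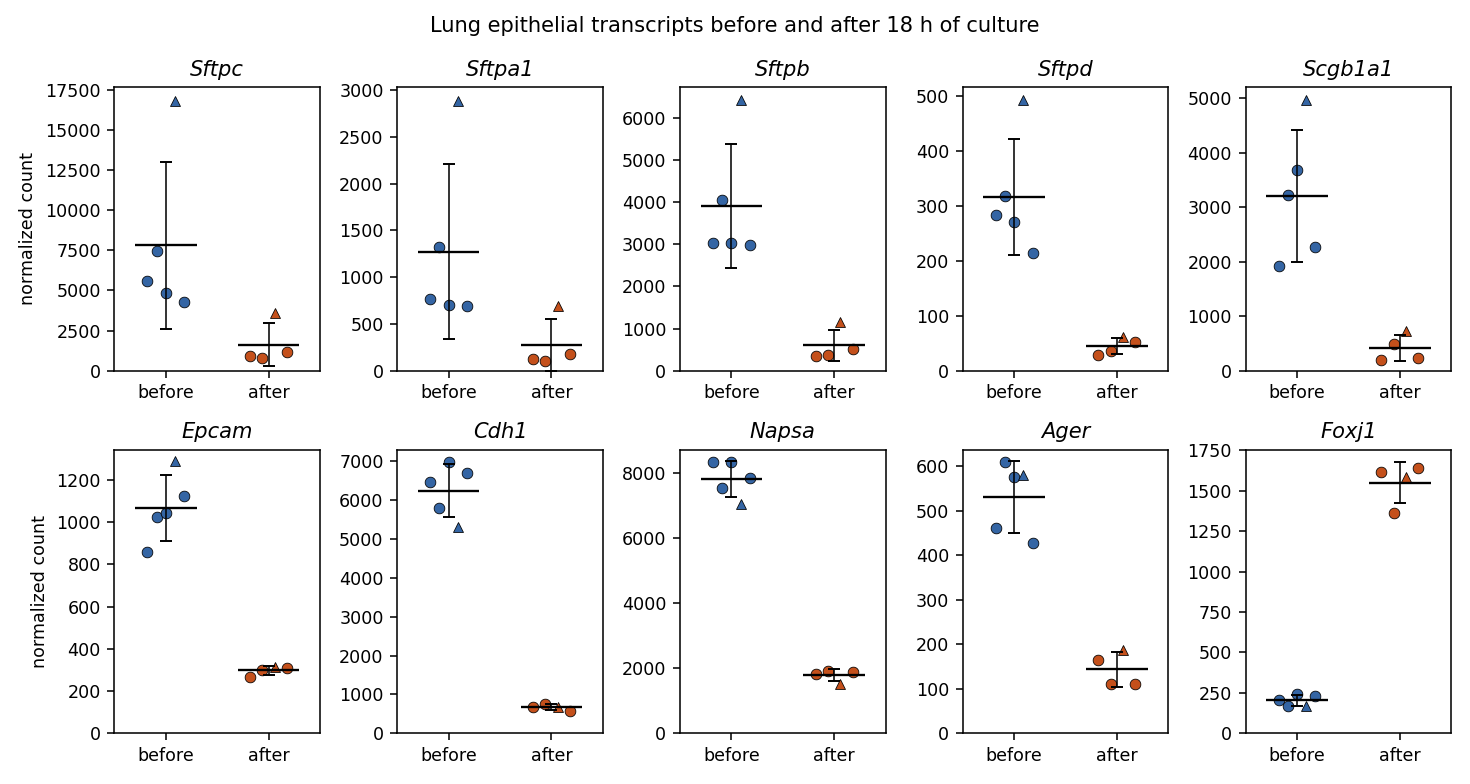
Normalized counts of the 10 epithelial genes in each sample before (blue, n = 5) and after (orange, n = 4) 18 h of culture, with the group mean (line) and SD (bar). Triangles are the libraries numbered 4, which hold the highest Sftpc values of their groups (16826 and 3606), and Foxj1 is the gene whose orange points lie above the blue ones.

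Sftpc encodes surfactant protein C, a hydrophobic peptide made by type 2 cells. It stood at 5561, 7467, 4857, 16826 and 4296 normalized counts in replicates 1 to 5 before culture, and at 893, 819, 3606 and 1142 in replicates 1 to 4 after culture. The groups did not overlap, but the lowest sample before culture and the highest after it lay close, and 1 sample in each group stood far above the rest. The log2 fold change, taken on log2(value + 1), was −2.37 (standard error, SE, 0.434; limma adjusted p = 0.000285), a ratio of means of 4.83. Without both libraries numbered 4 it was −2.53 (SE 0.159), with a ratio of 5.83. Leaving out after-culture replicate 3 alone moved the ratio of means to 8.20, and leaving out before-culture replicate 4 alone to 3.43.

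Sftpa1, for the collectin surfactant protein A, spread in a like way. Before culture it stood at 764, 1318, 705, 2886 and 691, and after culture at 124, 106, 687 and 179. Here too before-culture replicate 4 and after-culture replicate 3 were the high samples, and the highest value after culture was just under the lowest before. Its log2 fold change was −2.41 (SE 0.515, limma adjusted p = 0.000949) and its ratio of means 4.64. Without after-culture replicate 3 these were −3.00 and 9.33, without before-culture replicate 4 they were −2.05 and 3.17, and without both libraries numbered 4 they were −2.64 and 6.37.

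Sftpb, for the surfactant protein needed to spread the lipid film, stood at 3036, 4063, 3024, 6418 and 2987 before and at 358, 375, 1150.1 and 516 after culture. Every sample before culture was above every sample after it, and the log2 fold change was −2.81 (SE 0.311, limma adjusted p = 2.96e-06). Sftpd, for the collectin surfactant protein D, had 283, 318, 270.4, 493 and 215 normalized counts before and 29.1, 35.6, 61.9 and 52.5 after culture. Its groups lay far apart (log2 fold change −2.79, SE 0.253, limma adjusted p = 4.06e-07). The same samples were highest for both genes, though less so for Sftpd. Summed over the 4 surfactant genes, the samples before culture ranged from 8189 to 26623 (mean 13295 ± 7694, SD, n = 5) and those after it from 1336 to 5505 (mean 2534 ± 1996, SD, n = 4). After-culture replicate 3 carried much of the last mean, which was 1543 ± 302 without it (SD, n = 3), and the ratio of means went from 5.25 to 8.62, or to 6.46 without both libraries numbered 4.

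Scgb1a1 encodes the club cell secretory protein, the main secreted product of small airways. It stood at 1921, 3217, 3682, 4965 and 2264 before and 205, 497, 724 and 236 after culture. The groups were well separated, and the libraries numbered 4 were again highest. The log2 fold change was −3.06 (SE 0.349, limma adjusted p = 3.95e-06). Ager encodes the receptor RAGE, a membrane protein of type 1 cells. It stood at 461, 610.1, 576, 580.0 and 428 before and 165, 109.9, 188 and 110.2 after culture. Its fall was among the smaller of the 9 (log2 fold change −1.91, SE 0.175, limma adjusted p = 4.67e-07), and before culture the library numbered 4 was not the highest.

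Epcam encodes an epithelial adhesion molecule. It stood at 856, 1023, 1041, 1291 and 1122 before and 266, 301, 315 and 309 after culture, a tight group after culture with no sample apart. Its log2 fold change was −1.83 (SE 0.112, limma adjusted p = 7.93e-09). Cdh1, for E-cadherin, the ligand of CD103, stood at 6469.9, 5781, 6969, 5303 and 6695 before and 677, 747, 689 and 579 after culture. Over all 9 samples it had the largest fall of the 10 genes (log2 fold change −3.21, SE 0.0967, limma adjusted p = 1.09e-11), and before-culture replicate 4 was its lowest sample, not its highest. Without after-culture replicate 3 Scgb1a1 fell further, with a log2 fold change of −3.39 against −3.22 for Cdh1, and the ratios of means were 10.3 for Scgb1a1, 9.38 for Sftpb and 9.36 for Cdh1. Napsa encodes napsin A, an aspartic protease that processes surfactant protein precursors in type 2 cells. It stood at 8350.4, 7557, 8349, 7064 and 7854 before and 1811, 1925, 1528 and 1895 after culture. The groups did not overlap (log2 fold change −2.13, SE 0.0840, limma adjusted p = 1.19e-10), and the libraries numbered 4 held the lowest value in each group.

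Foxj1 encodes the forkhead factor that switches on the genes of motile cilia. It stood at 209, 169.5, 242, 169.9 and 229 before and 1613, 1362, 1585 and 1639.8 after culture. It rose 7.60-fold, with every sample after culture above every sample before it (log2 fold change 2.93, SE 0.121, limma adjusted p = 1.93e-10). With each sample's trend over GC content and gene length removed, the log2 fold change was 3.57.

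Compared per kilobase of merged exons, Sftpc was the most abundant of the 10 before culture, at 7545 ± 5015 normalized counts per kilobase, rank 104 of 42481 genes with a known length. Scgb1a1 came next at 6744 ± 2542 (rank 128), and their ranges overlapped. Napsa followed at 2946 ± 206, below every Scgb1a1 value, then Sftpb at 1985 ± 750 and Cdh1 at 1365 ± 150, and these 3 overlapped neighbour by neighbour. Epcam was at 486 ± 72.1, below every Cdh1 value, and overlapped Sftpa1 at 445 ± 328. Ager was at 248 ± 37.8, Sftpd at 131 ± 43.8 and Foxj1 at 77.7 ± 12.7 (rank 9051), each overlapping the one before it. After culture Sftpc was still first at 1562 ± 1291 (rank 590), overlapping Scgb1a1 at 873 ± 512, and Foxj1 had moved from last of the 10 to the fourth, at 591 ± 48.6 (rank 1959), overlapping Napsa at 673 ± 68.1. All values are normalized counts per kilobase (SD, n = 5 before and n = 4 after). Napsa depended on the length used, and stood at 5023 per kilobase before culture with its longest transcript.

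**Figure D2:**
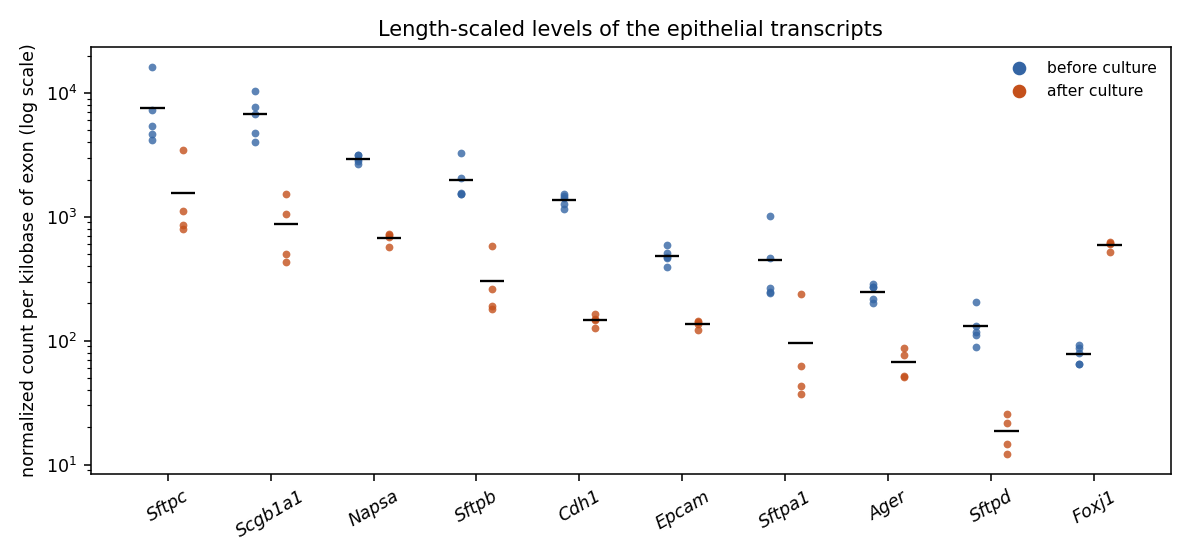
Normalized count per kilobase of merged exon (log scale) of the 10 genes in each sample before (blue) and after (orange) culture, in order of the mean before culture; lines are group means. Sftpc and Scgb1a1 led before culture (means 7545 and 6744), and Foxj1 moved from 77.7 to 591.

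The genes differed in how they varied among samples of 1 group. In both groups the library numbered 4 held the highest value of Sftpc, Sftpa1, Sftpb, Sftpd, Scgb1a1 and Epcam, 6 of the 10 genes, and the lowest of Napsa, whereas 13.2% of all tested genes were highest and 18.1% lowest in both of these libraries. Sftpa1 was 3.93 and Sftpc 3.23 times the median of the other samples before culture, and 5.56 and 4.04 times after it. Sftpb was 2.12 and 3.06 times, Sftpd 1.78 and 1.74 times, and Scgb1a1 1.81 and 3.06 times. Napsa was 0.872 and 0.806 times, Cdh1 0.806 and 1.02 times, and Foxj1 0.776 and 0.983 times. Of the 15 tested genes on a list of type 2 cell markers, 9 were highest in both of these libraries and 3 lowest (Napsa, Abca3 and Cebpa). Highest in both were 5 of 14 type 1 genes, 7 of 21 shared epithelial genes, 3 of 11 club and secretory genes and 0 of 13 ciliated genes. Lowest in both were 2 type 1 and 2 ciliated genes, and 0 of the shared epithelial or the club and secretory genes. Of other cells, 2 of 10 fibroblast markers, 1 of 10 endothelial markers, 1 of 11 cDC1 markers, 0 of 8 alveolar macrophage markers and 0 of 7 neutrophil markers were highest in both. The neutrophil markers were low in these libraries, with 3 of 7 lowest in both and median ratios to the other samples of 0.633 before and 0.639 after culture. The part of these cells in the spread of the epithelial genes was not tested.

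**Figure D3:**
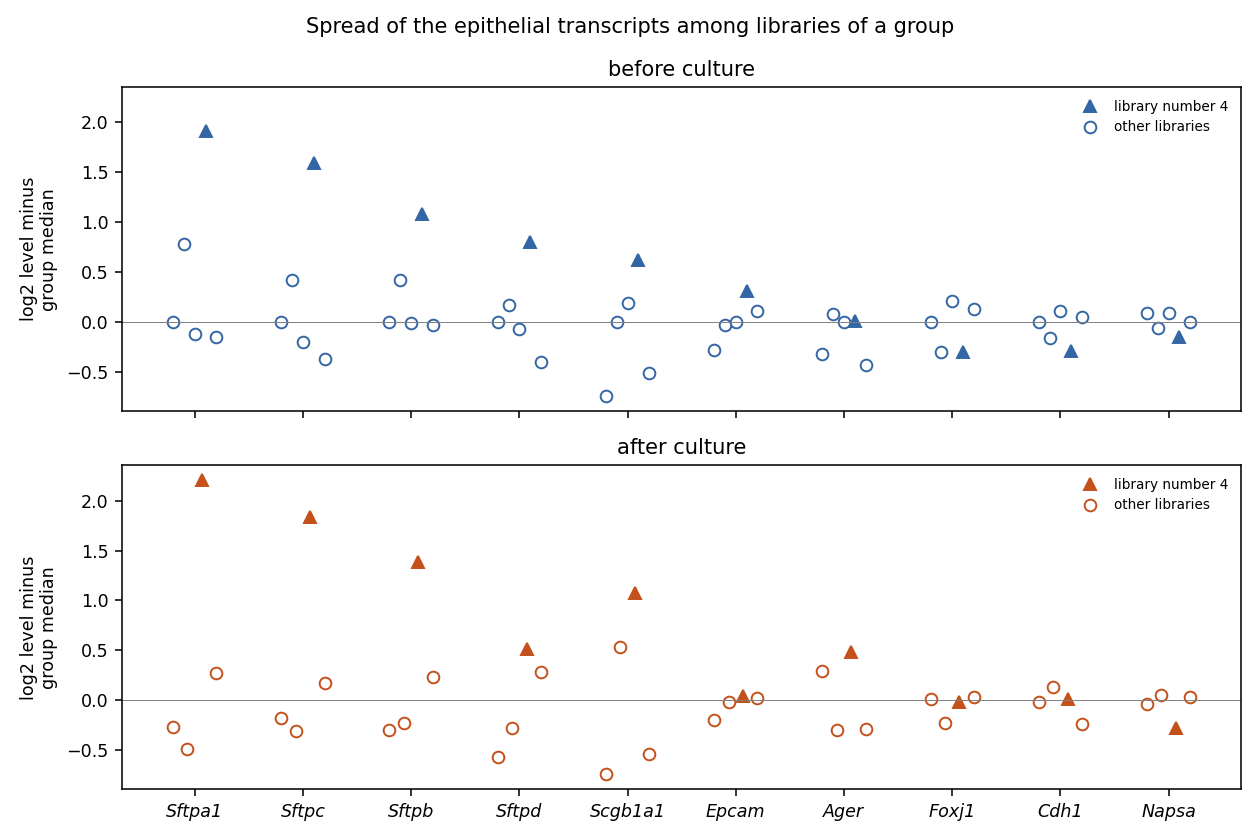
Log2 level of each gene minus the median of its group, before (top) and after culture (bottom), with 1 point per sample and filled triangles for the libraries numbered 4. The triangles lie highest for Sftpa1 and Sftpc in both groups, and lowest of their group for Napsa.

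For each gene the most alike patterns were sought by the root mean square (RMS) difference of log2 deviations from the group means over the 9 samples, among 13551 genes with a mean of at least 50. Nearest to Sftpc were Cxcl15 (RMS difference 0.171) and Chi3l1 (0.224), where Sftpc itself deviated by 0.776. Nearest to Sftpa1 were Lamp3 (0.196) and Cxcl15 (0.258). Cxcl15 is a chemokine of the lung lining, and Lamp3 is the lysosomal protein named above. Nearest to Sftpb were Lrp2 (0.158) and Kcnj15 (0.179), and nearest to Scgb1a1 were Clic5 (0.209), on the type 1 list, and Clec14a (0.246). Sftpd lay nearest to Itga8 (0.0571) and Fzd6 (0.104), and Ager nearest to Apbb1 (0.0822) and Dnah10 (0.0942). The smallest differences were mostly those of genes that deviated little among samples: for Epcam Zfp874a (0.0551) and Zfp984 (0.0606), for Cdh1 Adamtsl4 (0.0495) and Mrps25 (0.0510), for Napsa Aggf1 (0.0250) and Thap4 (0.0274), and for Foxj1 Slc4a11 (0.0575) and Stx11 (0.0698). All 9 points share their normalization.

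Within a library, the log2 ratio of Sftpa1 to Sftpc averaged −2.67 ± 0.155 (SD, n = 5) in fresh samples and −2.71 ± 0.240 (SD, n = 4) in cultured ones, a difference of −0.0429 (exact two-sided permutation test, p = 0.762). The ratio of Sftpb to Sftpc was −0.87 ± 0.326 before and −1.31 ± 0.243 after culture, with overlapping groups (exact permutation p = 0.0794). The ratio of Foxj1 to Sftpc had the largest difference, from −5.07 ± 0.994 to 0.23 ± 0.954, with no overlap (exact permutation p = 0.0159, the smallest this design can give). Foxj1 rose and Sftpc fell, each without overlap, so this separation and its p were fixed by values given above and add nothing to them. The 3 ratios given, of 9 such ratios, were chosen after the values were seen. After Benjamini-Hochberg adjustment over the 9 the exact permutation p-values were 0.762, 0.357 and 0.143. Between them, Scgb1a1, Cdh1, Sftpd, Epcam, Ager and Napsa gave exact permutation p-values from 0.143 to 0.635, all with overlapping groups. A ratio that misses the threshold does not show that the genes fell by the same factor.

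Wider lists of markers for type 2, type 1, club and secretory, ciliated, shared epithelial and basal genes held 88 genes, of which 86 matched a row and 75 were tested. Without the 10 genes above, 65 were tested, and of these 55 were lower, 3 higher and 7 not past the threshold, with a median log2 fold change of −1.57. The share of all tested genes lower after culture was the 34.6% given above. The lists were chosen with earlier results of these data known. The filter used the mean over all 9 samples, so a gene could enter through the samples before culture alone. Igfbp2, Ccdc153, Grhl2 and Ngfr were among those that did (means after culture 0.638, 3.37, 8.74 and 3.36).

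Of 15 tested type 2 genes 14 were lower and none higher (median −2.15). Slc34a2, the phosphate carrier of type 2 cells, went from 2181 ± 1469 to 89.8 ± 46.6 (log2 fold change −4.51). Muc1, a membrane mucin, went from 579 ± 194 to 126 ± 21.5 (−2.15), and Abca3, the lipid pump of lamellar bodies, only from 5057 ± 385 to 3329 ± 231 (−0.60). With a block for title number and the GC and length trends removed, Abca3 was at −0.19 (limma adjusted p = 0.0613) and did not pass. Lamp3 went from 425 ± 292 to 84.9 ± 71.6 (−2.43, or −3.09 with the title block and the GC and length trends removed), and was 1 of 8 genes on a list of mature dendritic cell genes, 6 of which were higher after culture and 1, Lamp3, lower. Nkx2-1, the lung lineage factor, went from 117 ± 42.6 to 28.4 ± 11.7 (−2.03). Lpcat1, a surfactant lipid enzyme, was the gene that did not pass (2923 ± 145 against 2878 ± 231, limma adjusted p = 0.781); it and Nkx2-1 were named after their values were seen.

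Of 14 type 1 genes 13 were lower (median −1.67) and 1 higher. Spock2 (411 ± 30.4 against 138 ± 12.6), Emp2 (1801 ± 485 against 353 ± 48.8) and Hopx (635 ± 91.6 against 211 ± 35.9) had the smallest adjusted p among those other than Ager. Pdpn, for podoplanin, which lymphatic and stromal cells also carry, was the higher gene (1699.7 ± 355 against 3294 ± 1449, log2 fold change 0.88, limma adjusted p = 0.00599), with overlapping groups. It held the highest mean count of the list over all 9 samples, though before culture Emp2 was higher (1801 against 1699.7), and the fall of the summed list was −0.64 on the log2 scale with it and −1.62 without it.

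All 11 tested club and secretory genes were lower (median −3.06). This count leans on genes that passed the filter only through the samples before culture. Scgb3a2, Cckar, Bpifa1, Muc5ac, Reg3g and Aldh1a7 had means after culture of 2.99, 8.49, 5.03, 7.20, 0.607 and 4.84, under the minimum of 10. Cyp2f2, a cytochrome of club cells, went from 506 ± 83.4 to 14.8 ± 6.26 (log2 fold change −5.11), Sec14l3 from 549 ± 64.1 to 58.7 ± 17.2 (−3.24) and Scgb3a2, a secretoglobin, from 205 ± 50.2 to 2.99 ± 2.92 (−5.90, or from −6.49 to −4.28 over the alternatives), which rested on 14 reads in all 4 cultured samples. The summed list stood at 3580.1 to 7124 before and 448 to 1012 after culture.

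Of 13 tested ciliated genes 10 were lower (median −1.85), and Foxj1 alone was higher. Tppp3, a tubulin-binding protein of ciliated cells, went from 1387 ± 164 to 71.2 ± 16.8 (log2 fold change −4.29). Rfx2, a cilia transcription factor, went from 415 ± 67.6 to 70.5 ± 11.3 (−2.54), and Dnah5, an outer arm dynein, from 53.5 ± 10.7 to 10.8 ± 2.14 (−2.21). Dnah9 and Ak7 did not pass, with limma adjusted p-values of 0.186 and 0.528. Mcidas, which acts upstream of Foxj1 in ciliated cells, was not tested, with 18 reads over the 5 samples before culture and 0 in the 4 samples after it. None of the other 12 tested genes on the list was higher. Dnah9, Ak7 and Mcidas were named after their values were seen.

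Of the 21 genes of junctions, keratins and shared epithelial regulators 15 were lower and 2 higher (median −0.92). Besides Cdh1 and Epcam, Cldn3 (83.1 ± 21.4 against 16.3 ± 4.36, log2 fold change −2.28, or −1.60 with GC and length trends removed) and Grhl2, an epithelial transcription factor (51.6 ± 14.4 against 8.74 ± 5.04, −2.54, or −1.85 with a pseudocount of 8), were among the lower genes. St14, for the membrane protease matriptase, rose from 212 ± 17.7 to 4435 ± 339 (log2 fold change 4.38, SE 0.0859, limma adjusted p = 5.92e-13), and Cldn4, a claudin, from 104 ± 33.7 to 203 ± 38.2 (1.00, limma adjusted p = 0.00153). Krt8 (213 ± 51.0 against 251 ± 41.8) and Krt18 (161 ± 38.1 against 159 ± 14.4), the paired keratins of simple epithelium, did not pass, nor did Esrp2 and Ap1m2 (limma adjusted p = 0.218, 0.968, 0.122 and 0.0912). These 4 were named after their values were seen. Esrp2 passed as lower without after-culture replicate 3 (−0.46) and Ap1m2 without after-culture replicate 1 (−0.84). Krt8 passed, with a log2 fold change of 0.66, once trends over GC content and gene length were removed, and with 0.45 under quantile normalization.

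Of 7 basal cell genes only Ngfr, a neurotrophin receptor also carried by nerve and stromal cells, was tested, and it went from 372 ± 70.7 to 3.36 ± 2.50 (log2 fold change −6.57, or −5.07 with a pseudocount of 8). The other 6, Krt5, Trp63, Krt14, Krt15, Krt17 and Dsg3, were at 0 to 6.19 normalized counts in all samples.

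**Figure D4:**
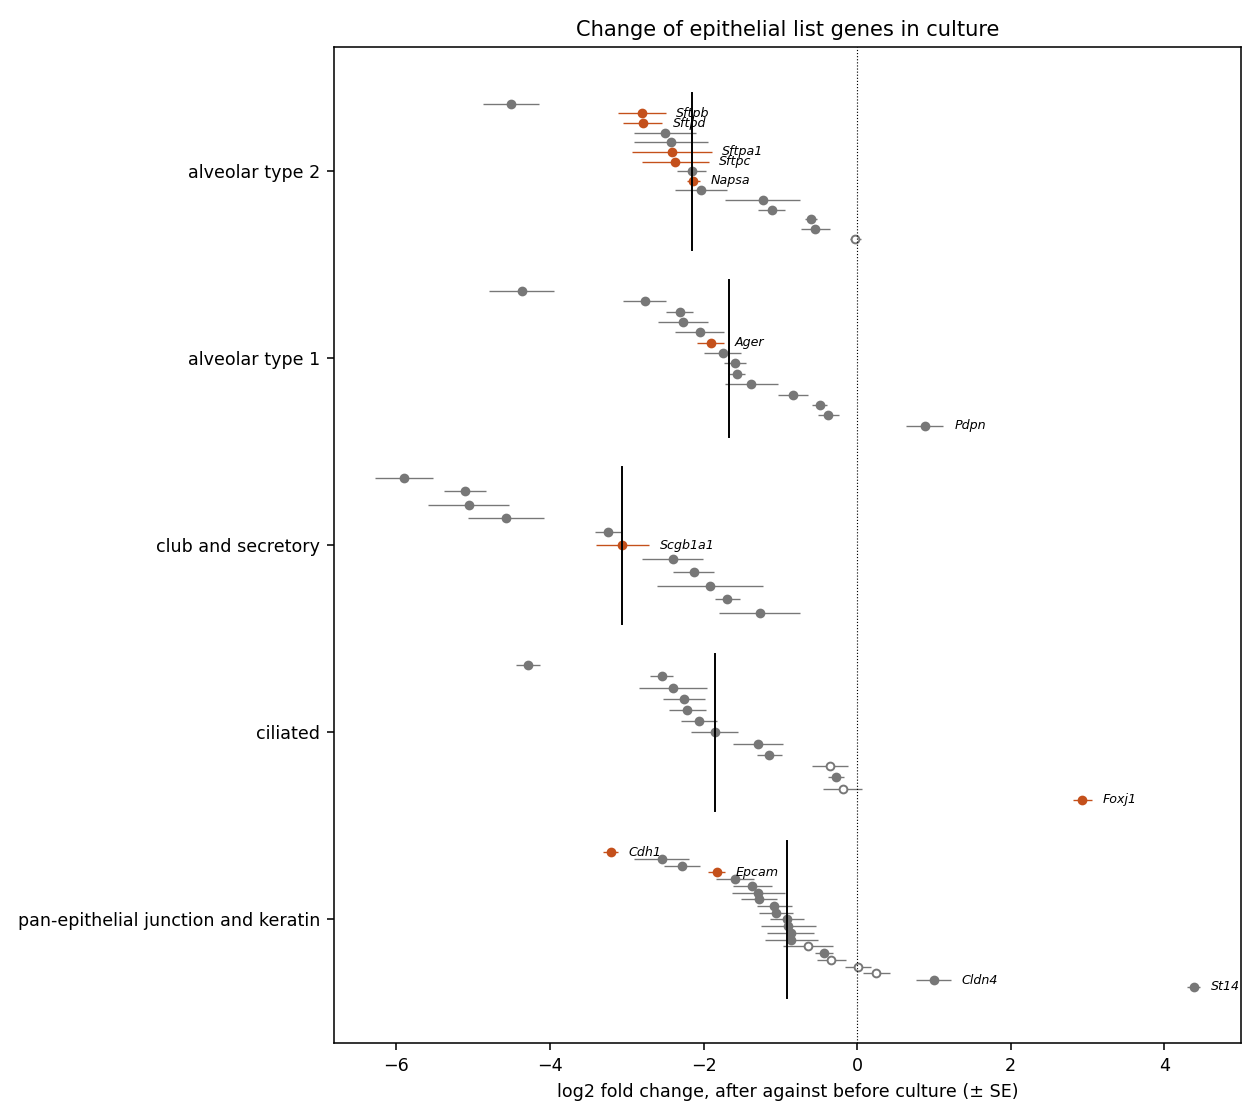
Log2 fold change (± SE) of tested genes on 5 epithelial lists, after against before culture; filled points passed a limma adjusted p of 0.05, orange points are the 10 genes described, and vertical lines are list medians. Medians run from −3.06 (club and secretory) to −0.92 (shared junction and keratin genes), and the genes that passed as higher are St14, Foxj1, Cldn4 and Pdpn.

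Markers of other cells were mostly lower after culture too, though 6 of 8 mature dendritic cell genes were higher. All 10 endothelial and all 10 fibroblast markers and all 7 tested neutrophil markers were lower after culture, with medians of −3.48, −2.21 and −4.28. Of these, Tcf21 and S100a9 passed the filter only through the samples before culture (means after culture 6.43 and 6.15). Summed levels ranged from 30217 to 46864 before and 4124 to 5526 after culture for the endothelial list, from 16709.6 to 30104 and 2605 to 4957 for the fibroblast list, and from 14293 to 25005 and 935 to 1909 for the neutrophil list. Of 8 alveolar macrophage markers 5 were lower and 1 higher (median −0.82). The cDC1 list had a summed level from 136116 to 165290 before and 42819 to 45698 after culture. None of these markers was at 0 in all samples of a group. The part of these cells, and of the dendritic cells themselves, in the values of the epithelial genes was not tested.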

How the data were processed

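RNA of 5 samples before and 4 after culture was sequenced, and groups follow the sample titles. The authors deposited 1 table of normalized counts per gene (unit: signal). The submitters' processing notes name DESeq2 and GRCm38, while aligner, counting tool, annotation and use of strand are not given in the sources used here. Dividing each column by its smallest step gave whole numbers for 100% of values (tolerance 1e-06), and these were used as recovered reads. Rows without a symbol (3782 of 49317, 3.87 to 10.9% of reads) were left out. Genes with a mean of at least 10 normalized counts were fitted as log2(value + 1) in limma 3.58.1 (R 4.3.3; group as the only term, mean-variance trend, two-sided), with Benjamini-Hochberg adjustment over all tested genes and a threshold of 0.05. A log2 fold change on this scale understates changes of low genes. Ratios used exact permutation over samples. Lengths and positions came from GENCODE M21 (GRCm38), promoters from RefSeq.

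The members and gene lists were chosen with earlier results of these data known. Genes named are the 10 members, up to 3 others per epithelial list with the smallest adjusted p, every list gene that rose, 3 dendritic cell markers and the 2 nearest patterns of each member; others are marked where they stand. Alternatives were pseudocounts of 0.5 and 8, no filter or a minimum mean of 50, TMM and quantile scaling, edgeR 4.0.16 and DESeq2 1.42.0 on recovered reads, replicate blocks, a GC and length correction, other lengths and leaving out samples; leaving out both libraries numbered 4 was chosen after seeing the data. The fit was tested on simulated data. Depth is given in the results.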

Additional observations from a re-analysis of the deposited data

Results flagged for a closer look

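A sample far from the others of its group was seen in 4 of the 20 groups of values checked (10 genes in 2 groups). For separate groups of normally spread values, chance flags about 1 in 20. The 4 flagged here are not separate: they are Sftpc and Sftpa1, which varied together, in the same 2 libraries. Sftpc was 16826 normalized counts in before-culture replicate 4, against 4296 to 7467 in the other 4 samples, and 3606 in after-culture replicate 3, against 819 to 1142 in the other 3. Sftpa1 was 2886 in before-culture replicate 4, against 691 to 1318, and 687 in after-culture replicate 3, against 106 to 179. Both samples carry library number 4.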

How the results depend on the processing

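All 10 epithelial genes kept their direction and their side of the threshold in all 220 recomputed values. Of 308 recomputed counts over lists and over all genes, 305 were within 1.5 times the reported one. With a minimum mean of 50, 7 club and secretory genes and 6 ciliated genes were lower, because fewer genes were tested. With the GC and length correction 1 type 2 gene was higher, Lpcat1, whose log2 fold change turned to 0.21; the cause was not tested. The log2 ratio of summed levels was also taken without the most abundant gene of a list. It was −1.62 for the type 1 list without Pdpn and −0.16 for the basal list without Ngfr. It turned to 0.38 for the ciliated list without Tppp3 and to 0.35 for the shared epithelial list without Cdh1. These last sums still held genes that rose, among them Foxj1 (mean 204 before and 1550 after culture) and St14 (212 and 4435). Sums without Foxj1 or St14 were not taken, and most tested genes of each list were lower. With the longest transcript as length, Sftpd stood at 175 and Napsa at 5023 normalized counts per kilobase before culture.

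On recovered reads edgeR called 6184 genes higher and 6378 lower and DESeq2 6293 and 6370, against 6225 and 6299 in limma. The replicate block by title number, in which before-culture replicate 5 has no partner, gave 5761 genes higher and 5885 lower; the block by library number, in which before-culture replicate 2 has none, gave 6390 and 6446. Neither block alone changed the call of any of the 10 genes or of the list genes named. Same-numbered samples correlated in their deviations from group means at −0.213 to 0.0807 by title and 0.0447 to 0.349 by library name. These were over 0.1 in 0 and 2 of 4 pairs. By library name, each cultured sample correlated most with the before-culture sample of its own number. The labels do not say that numbers pair the samples, so the main fit took no pairs, and whether they are pairs was not tested. With the block by library number the limma adjusted p of Sftpc was 1.48e-09, against 0.000285 in the main fit. That of Cdh1 was 2.32e-11, against 1.09e-11 in the main fit. Genes at 3 reads or fewer are limited by depth.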
